A study of Mus musculus with 26 samples.

Results

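Tumour cells that carry EpCAM, the surface protein of epithelial cells, were compared after growth in mice treated to remove T cells with the same line in culture. The comparison takes all 6 libraries titled as Her2-positive EpCAM-positive cells of CD4- and CD8-depleted mice at day 20 and both libraries titled as the E-A14 cell line, 8 of the 26 libraries of the series, and covers every expressed gene. The E-A14 line comes from mouse mammary tumours and carries Her2, here from a rat Neu transgene counted as 1 extra feature. For the tumour group it was implanted in the fourth mammary fat pad of FVB/N mice aged 6 to 8 weeks. These mice received 100 µg each of anti-CD4 and anti-CD8a antibody by intraperitoneal injection 2 times a week, beginning 2 weeks before implantation and continuing while the tumours grew. Tumours were taken 20 days after injection of the cells. They were digested for 30 min at 37 °C with collagenase and DNase I, and the sort kept live cells negative for CD45, CD90 and CD105, then divided Her2-positive cells by EpCAM. The cultured cells, also labelled FVB/N, were lysed as a suspension with no sort, and no digestion is stated for them. Also used, in figures and a closing comparison, are Her2-positive EpCAM-negative cells sorted in the same way from depleted mice at day 20, and EpCAM-positive and EpCAM-negative cells of FVB/N mice that received 100 µg each of rat IgG2a and IgG2b on the same schedule and were taken at day 47, with 6 libraries a group. Growth in a mouse, digestion and sorting all separate the 2 groups, so their parts in a difference cannot be told apart. The labels do not say whether both culture libraries came from separate cultures. The p-values below use a spread shared by all groups of the series, and the 2 culture libraries may show technical spread only.

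A line in culture grows on plastic with oxygen, serum, lipid and amino acids renewed from the medium. A tumour of the same cells builds its own matrix, is fed by host vessels and shares space with host leukocytes. Cells read scarcity of amino acids through the translation factor eIF2 and the transcription factor ATF4, scarcity of sterols through SREBP, and scarcity of oxygen through HIF. Each of these switches sets a known group of genes, and those groups were counted here beside matrix, cell cycle and immune genes.

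Of 16637 tested genes, 3473 were higher in depleted EpCAM-positive cells than in culture and 3097 were lower (edgeR quasi-likelihood test, Benjamini-Hochberg adjusted p under 0.05). These are 20.9% and 18.6% of all tested genes, the shares against which the gene lists below are read. Fewer of all tested genes were called when 1 culture library was left out. List counts from those fits are therefore not to be read against these shares. The lists hold 1240 different genes, of which 1132 were tested. The others did not pass the filter on low counts, and counts of a list cover its tested members. A change of at least 1 on the log2 scale was seen for 1901 of the higher and 1273 of the lower genes, or 11.4% and 7.65% of those tested. The median log2 fold change of all tested genes was 0.11. With scaling by total counts alone that median was −0.019 and the split was 2775 higher and 3957 lower. Without culture replicate 1, 2164 genes were called higher and 2247 lower, and without culture replicate 2, 2340 and 2431. Totals ran from 17559520 to 25601999 counts in the 6 tumour libraries and were 27253363 and 35059744 in the cultures. Levels are given in CPM, counts scaled to a library total of 1e6, after TMM scaling, and for the tumour cells 3 values are the lowest, the median and the highest of the 6 libraries. A pair of values joined by "against" with ± is the mean and SD over 6 tumour and 2 culture libraries. Log2 fold changes are tumour cells minus culture, with their standard error.

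**Figure D1:**
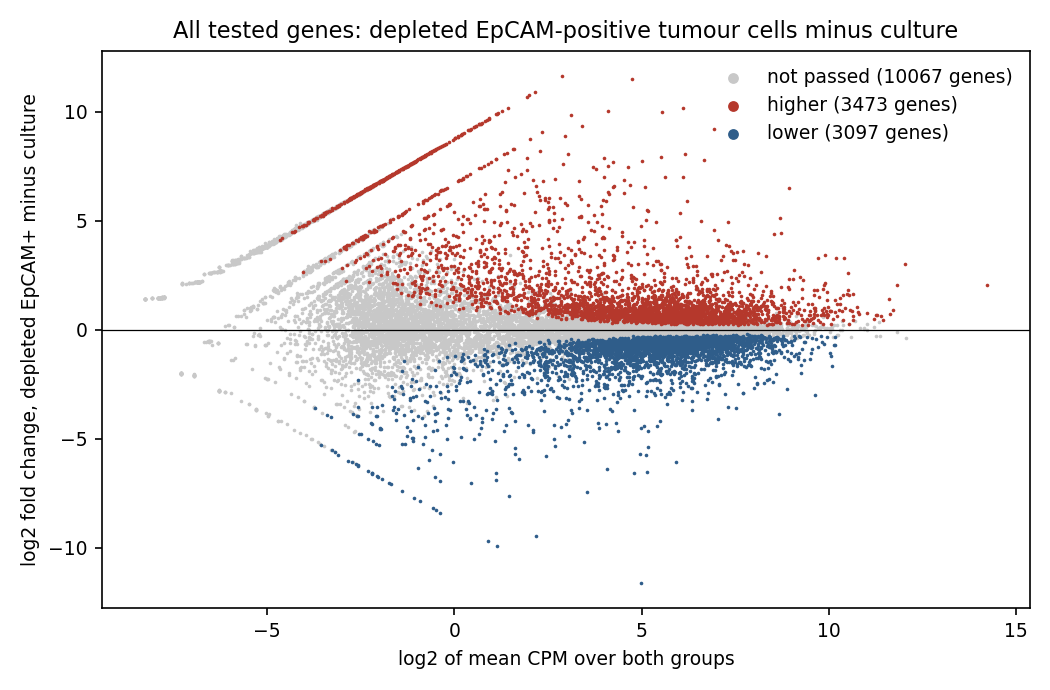
Each point is 1 tested gene, with the log2 of its mean CPM over depleted EpCAM-positive cells and culture on the x axis and the log2 fold change (depleted EpCAM-positive minus culture) on the y axis. Red marks the 3473 genes called higher, blue the 3097 called lower and grey the rest of the 16637. The slanted lines at left are genes with 0 or very few counts in 1 of the groups.

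The targets of the sort came first as a check of the labels. The rat Neu transgene, the driver of the line, had 389, 487 and 745 CPM in the tumour cells, against 517 and 588 CPM in culture. The ranges overlapped and the gene did not pass the test (log2 fold change −0.04 ± 0.21, adjusted p = 0.899). Mouse Erbb2, the endogenous gene for Her2, had 108, 156 and 179.6 CPM in the tumour cells, against 94.8 and 93.7 CPM in culture (log2 fold change 0.71 ± 0.13, adjusted p = 1.06e-04). Epcam had 2038, 2457 and 2705 CPM in the tumour cells, against 811 and 771 CPM in culture, with every tumour library above both cultures (log2 fold change 1.62 ± 0.42, adjusted p = 0.00267). Because the tumour cells were sorted for EpCAM and the cultured cells were not, the gate and growth in the mouse cannot be told apart in the Epcam value.

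Epithelial identity genes were called higher at about the share of all tested genes, while keratin, desmosome, basal and mesenchymal lists lay above it. In bulk RNA, more cells of a kind and more RNA per cell cannot be told apart. Of 35 tested epithelial genes, 8 were higher and 1 was lower, with a median log2 fold change of 0.21. Without culture replicate 1, 5 of them were called higher, and without replicate 2, 4. Cdh1, which encodes E-cadherin, had 789.6, 1015 and 1281 CPM in the tumour cells, against 428 and 486 CPM in culture, with no overlap (log2 fold change 1.20 ± 0.28, adjusted p = 0.00130). Krt8, a keratin of simple epithelium, was at 1983 ± 202 against 1070.5 ± 10.8 CPM (0.89 ± 0.18). Cldn3, a tight junction gene, did not pass at 163 ± 9.19 against 185 ± 27.6 CPM. Crb3, a polarity gene, was the lower one at 10.7 ± 1.34 against 27.5 ± 0.483 CPM. Of 22 keratin and desmosome genes, 14 were higher and 1 was lower. Dsp and Dsg2, parts of the desmosome, were at 254 ± 25.9 against 87.2 ± 1.32 CPM and 296 ± 37.1 against 90.0 ± 6.13 CPM.

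Basal genes of the mammary gland moved up with them, 11 higher and 1 lower of 19. Krt14, the basal keratin, had 1398, 1453 and 1793 CPM in the tumour cells, against 367 and 357 CPM in culture (log2 fold change 2.07 ± 0.24, adjusted p = 1.47e-07). Trp63, the transcription factor of basal epithelium, had 22.3, 33.2 and 39.2 CPM in the tumour cells, against 0.192 and 0.282 CPM in culture. All 6 tumour libraries were above both cultures, which were near 0 (log2 fold change 7.02 ± 0.44, adjusted p = 3.57e-12). Krt5, the partner of Krt14 in basal cells, stayed at 0.407 ± 0.304 against 0.0929 ± 0.0953 CPM and did not pass. Mylk, a myosin light chain kinase of contractile cells, was at 29.6 ± 3.01 against 1.04 ± 0.700 CPM, and Nrg1, a ligand of ErbB receptors, was the lower member at 5.04 ± 2.36 against 28.6 ± 2.20 CPM. Of 32 mesenchymal genes, 21 were higher and 1 was lower. Vim, the intermediate filament of mesenchymal cells, had 1032, 1197 and 1504 CPM in the tumour cells, against 333 and 359.5 CPM in culture (log2 fold change 1.81 ± 0.17, adjusted p = 5.71e-09). Zeb1, a repressor of epithelial genes, was at 4.61 ± 2.05 against 2.24 ± 0.918 CPM (1.06 ± 0.36), but its ranges overlapped and it did not pass without culture replicate 2 (adjusted p = 0.340) or with the 8 libraries alone in the fit (adjusted p = 0.121). The lower member was the receptor kinase Axl at 468 ± 67.1 against 990.3 ± 63.2 CPM.

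Matrix and adhesion genes were among the largest rises. Lama3, the alpha chain of laminin-332 that anchors epithelium to its basement membrane, had 683, 948 and 1253 CPM in the tumour cells, against 6.86 and 14.3 CPM in culture, a rise in every library (log2 fold change 6.51 ± 0.58, adjusted p = 1.97e-09). Itgb3, the beta chain of the alpha-v beta-3 integrin, had 95.7, 126 and 189.7 CPM in the tumour cells, against 0.0641 and 0.154 CPM in culture. With 17089 counts in the 6 tumour libraries and 8 in the 2 cultures, its ratio was 1206-fold, with a 95% counting interval of 612 to 2795. Its fitted log2 fold change was 10.19, or 10.94 without culture replicate 2, and that of Lama3 was 7.10 without that library. Mmp9, a gelatinase, had 137, 200.2 and 322 CPM in the tumour cells, against 1.09 and 0.742 CPM in culture (log2 fold change 7.80 ± 0.79, adjusted p = 1.84e-08). Igfbp7, a secreted protein of the matrix, had 114, 137 and 157 CPM in the tumour cells, against 1.38 and 0.793 CPM in culture, with all 6 tumour libraries above both. Sparc, a collagen-binding matricellular protein, had 693, 811 and 995 CPM in the tumour cells, against 22.9 and 24.0 CPM in culture (log2 fold change 5.11 ± 0.22, adjusted p = 1.05e-14). None of these 5 genes overlapped between the groups. Lama3, Igfbp7 and Sparc meet a naming rule that required no overlap, so for them this is no separate result. Over all tested genes, 23.1% had all 6 tumour libraries above both cultures and 22.6% below both.

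**Figure D2:**
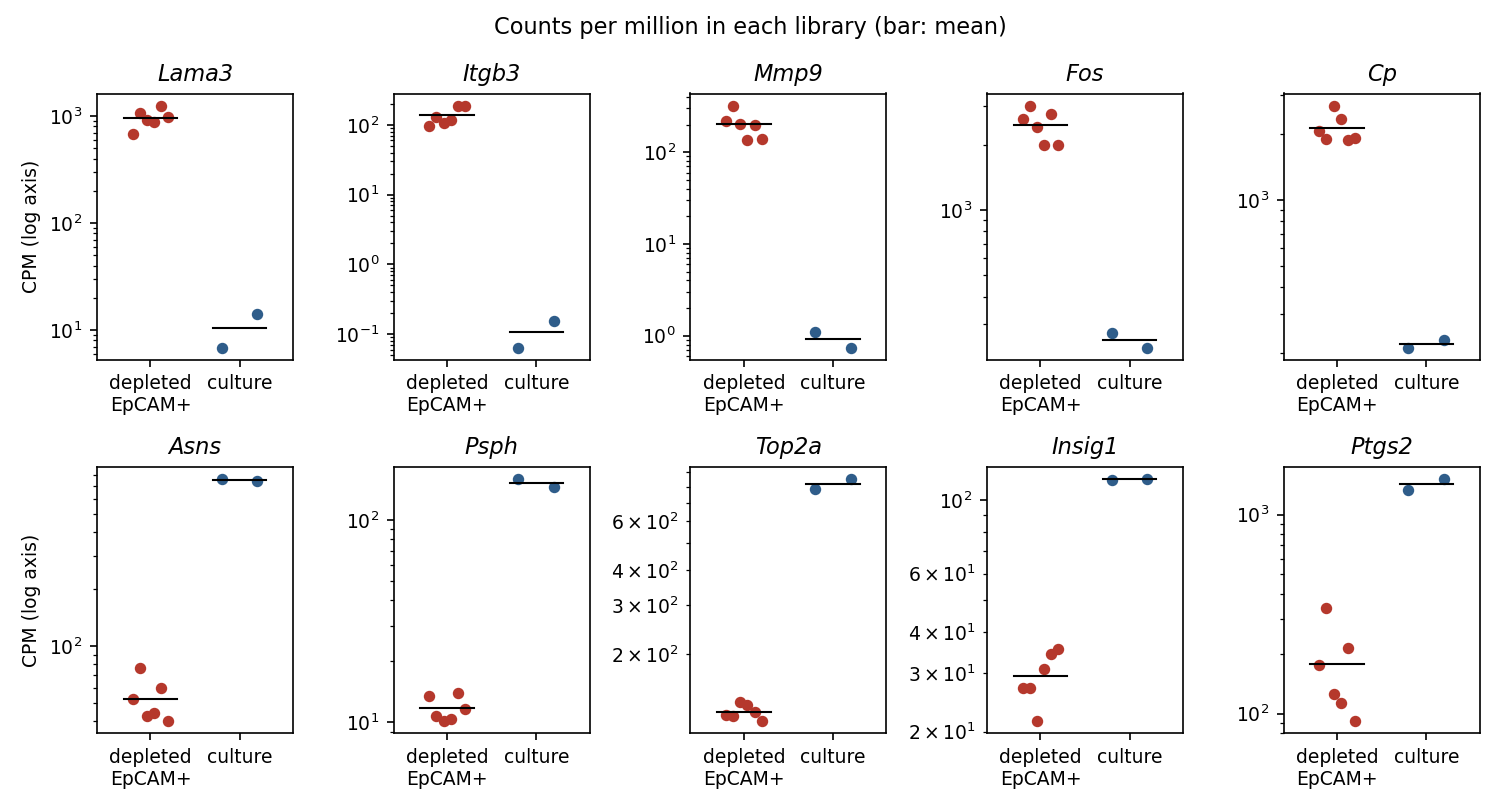
CPM in each library on a log axis for 10 genes, the 6 depleted EpCAM-positive libraries at left (red) and the 2 cultures at right (blue), with a bar at the group mean. The upper row holds genes that were higher in the tumour cells and the lower row genes that were higher in culture; in each panel the 2 groups do not overlap.

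The matrix lists moved unevenly. Among 18 fibrillar and other collagens 13 were higher and none was lower, with a median of 4.18. In the tumour cells the list summed to a mean of 8091 CPM, most of it Col18a1. Col18a1, which carries endostatin, had 6331, 7184 and 9401 CPM in the tumour cells, against 919 and 909 CPM in culture, and Col8a1 was at 124 ± 33.5 against 6.44 ± 0.126 CPM. The fibroblast collagens Col1a1 and Col3a1 were higher as well, at 42.6 ± 16.5 against 2.17 ± 0.144 CPM and 49.3 ± 24.1 against 0.292 ± 0.268 CPM. Of 20 basement membrane genes, 13 were higher and 3 lower. Beside Lama3, Lamb3, the beta chain of laminin-332, rose to 1160.1 ± 135 against 386 ± 26.7 CPM. The paired collagen IV genes Col4a1 and Col4a2, which form the common network of basement membranes, went the other way. Col4a1 had 61.7, 81.3 and 102 CPM in the tumour cells, against 439.9 and 477 CPM in culture (log2 fold change −2.47 ± 0.36, adjusted p = 5.11e-06). Col4a2 had 42.2, 45.8 and 70.6 CPM in the tumour cells, against 339 and 406 CPM in culture (log2 fold change −2.91 ± 0.34, adjusted p = 1.55e-07). Col4a5 and Col4a6, the pair of epithelial basement membranes, were higher at 211 ± 21.9 against 104 ± 3.93 CPM and 105 ± 27.6 against 43.1 ± 0.761 CPM.

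Of 25 matricellular genes, 14 were higher and 2 lower. Spp1, osteopontin, took the largest gain in counts of any called gene, with 26505, 31122 and 35713 CPM in the tumour cells, against 7628 and 7373 CPM in culture (log2 fold change 2.05 ± 0.24, adjusted p = 1.88e-07), or a mean of 3.15% of all counts in the tumour cells and 0.847% in culture. Fn1, fibronectin, was at 5862 ± 716 against 1396 ± 155 CPM. Of 28 proteases and inhibitors, 18 were higher and 7 lower. Without culture replicate 2, 11 and 3 were called, and without replicate 1, 12 and 4. Mmp3 and Mmp14, a secreted and a membrane-bound protease, were at 1270.1 ± 225 against 447 ± 13.0 CPM and 541 ± 36.1 against 156 ± 1.67 CPM. Plat, tissue plasminogen activator, was at 312 ± 33.3 against 33.3 ± 5.86 CPM, whereas Mmp10, stromelysin 2, was lower at 29.6 ± 4.58 against 135 ± 10.9 CPM. Timp3, the inhibitor bound to matrix, was lower, with 25.3, 35.4 and 41.0 CPM in the tumour cells, against 258 and 274 CPM in culture (log2 fold change −2.96 ± 0.17, adjusted p = 1.17e-12). Of 18 integrin chains, 10 were higher, among them Itgb8 at 60.8 ± 10.4 against 2.20 ± 0.939 CPM and Itgb4, the hemidesmosome chain that binds laminin-332, at 1281 ± 168 against 356 ± 5.83 CPM. Without culture replicate 1, 6 chains were called higher. Itga7, a laminin receptor of muscle, was the lower one at 20.0 ± 3.24 against 59.9 ± 3.31 CPM.

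**Figure D3:**
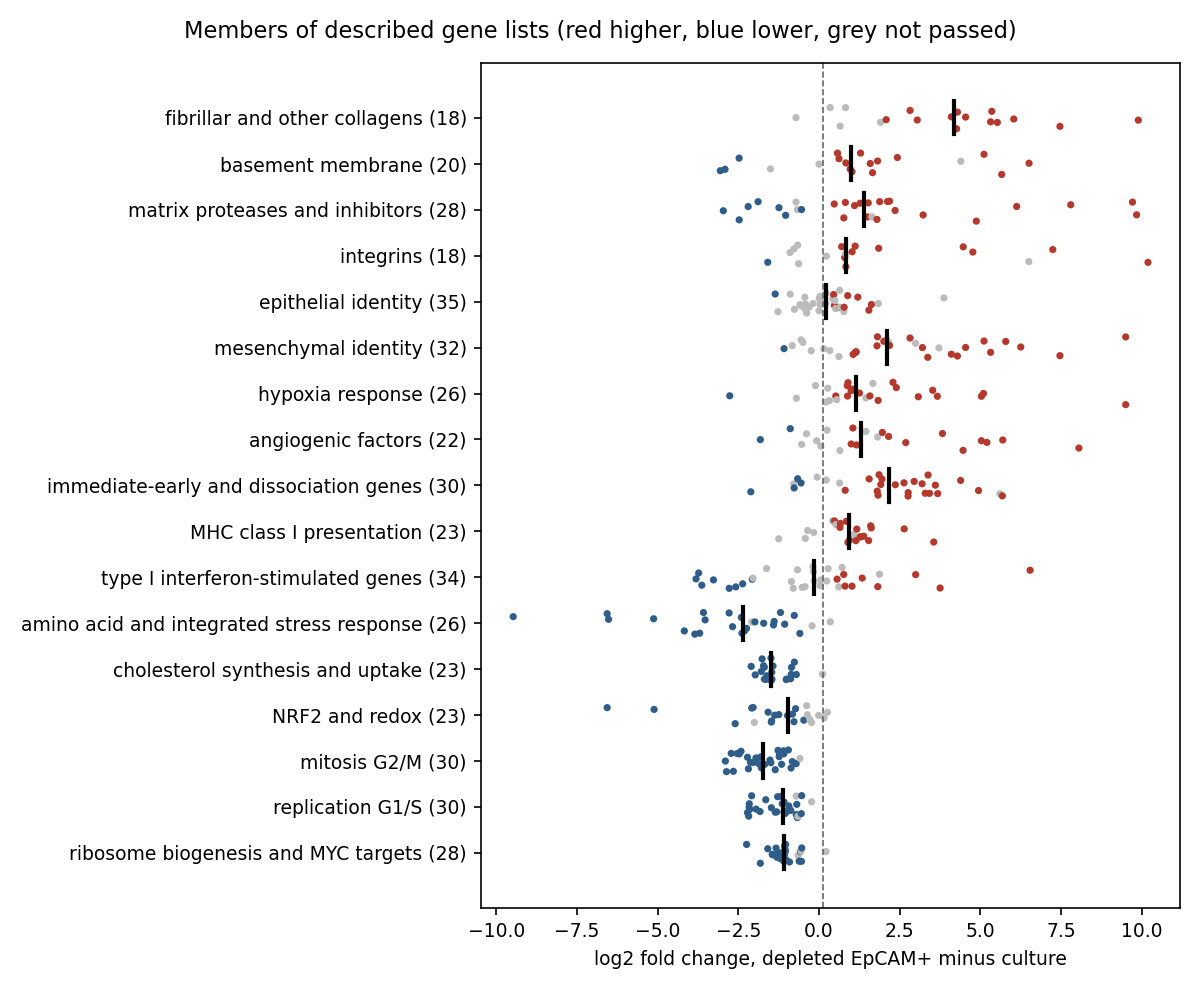
Each point is 1 tested member of a gene list, placed by its log2 fold change (depleted EpCAM-positive minus culture). Red members were called higher, blue lower and grey did not pass; the black bar is the list's median, the dashed line the median of all tested genes (0.11), and the number tested stands in brackets. The amino acid, cholesterol, mitosis, replication and ribosome biogenesis lists have no red member, and the collagen and class I lists have no blue one.

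Some genes were all but off in 1 group. Among genes with at most 3 counts in each culture library, the most abundant in the tumour cells was Cxcl14, a chemokine of epithelium, with 37.6, 54.4 and 74.3 CPM in the tumour cells, against 0.0321 and 0 CPM in culture and a count ratio of 3801-fold, with a 95% counting interval of 682 to 150160.0, which rests on 1 count in culture replicate 1 and none in replicate 2. It was followed by St8sia2, which adds polysialic acid to surface proteins, at 34.2 ± 6.02 against 0.0256 ± 0.0362 CPM, and by Samd5 at 21.3 ± 8.60 against 0.0288 ± 0.00457 CPM. Mmp12, the macrophage elastase, was at 17.3 ± 4.86 against 0.0160 ± 0.0227 CPM and Col9a1, a collagen known from cartilage, at 16.4 ± 6.55 against 0.0577 ± 0.00915 CPM. Ctss, Lyve1 and C1qb, genes of myeloid or lymphatic cells, completed the 8, at 15.5 ± 5.88 against 0.0256 ± 0.0362 CPM, 14.6 ± 3.39 against 0 ± 0 CPM and 10.1 ± 2.63 against 0.0128 ± 0.0181 CPM. Lyve1 had no count in culture and was at least 169-fold higher against a floor of 3 counts per library. In depleted EpCAM-negative cells Lyve1 averaged 1.72 CPM (log2 fold change of EpCAM-positive minus EpCAM-negative 3.10 ± 0.61, adjusted p = 2.96e-04). Ctss and C1qb, at 19.6 and 11.8 CPM in those cells, did not pass that comparison. In the other direction, Adh7, an alcohol and retinol dehydrogenase, was all but lost from the tumour cells, with 0, 0 and 0.0536 CPM in the tumour cells, against 61.3 and 66.3 CPM in culture and a count ratio of 3984-fold, with a 95% counting interval of 1102 to 32904 in favour of culture. Stc2, stanniocalcin 2, was at 0.00865 ± 0.0212 against 8.99 ± 0.425 CPM, with 1 count over all 6 tumour libraries and 634 over the cultures. Cyb5r2, a cytochrome b5 reductase, and Mei4, a gene of meiotic recombination, had no count in any tumour library, and were at least 29.1-fold and 26.9-fold lower. For Mei4 the limit was 12.0-fold against culture replicate 1 alone and 38.8-fold against replicate 2 alone. The others were Psg20, Usp17le, Fut1 and Myo5c, at 0.0216 ± 0.0344 against 5.52 ± 0.353 CPM, 0.0327 ± 0.0509 against 4.33 ± 0.908 CPM, 0.0413 ± 0.0606 against 4.25 ± 1.70 CPM and 0.0179 ± 0.0437 against 2.69 ± 1.49 CPM. With DESeq2, Cyb5r2 (adjusted p = 0.239), Mei4 (adjusted p = 0.254) and Psg20 (adjusted p = 0.0788) did not pass. Psg20 and Usp17le belong to families of near copies whose reads the counting could have split.

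Of the 12 largest rises among genes present in both groups, Pros1, protein S of the clotting system and a ligand of TAM receptors, was at 147 ± 22.2 against 2.40 ± 1.49 CPM. The surface proteins Ly6d, Mcam and Podxl were at 53.8 ± 11.5 against 1.09 ± 0.677 CPM, 69.1 ± 16.2 against 1.53 ± 0.301 CPM and 185 ± 24.2 against 5.79 ± 4.46 CPM. Col16a1 was at 128 ± 28.0 against 3.08 ± 1.77 CPM, and Tnfrsf9, the co-stimulatory receptor 4-1BB, at 309 ± 24.8 against 9.87 ± 0.406 CPM. The 12 largest falls began with S100a7a, a psoriasin of stressed epithelium, with 1.14, 1.93 and 2.34 CPM in the tumour cells, against 110.3 and 129 CPM in culture (log2 fold change −6.04 ± 0.41, adjusted p = 1.36e-11). Wnt7a, a secreted Wnt ligand, had 0.804, 1.13 and 2.33 CPM in the tumour cells, against 67.9 and 68.0 CPM in culture (log2 fold change −5.74 ± 0.69, adjusted p = 1.12e-06). Il1a, the alarmin interleukin 1 alpha, had 1.505, 4.16 and 6.29 CPM in the tumour cells, against 78.5 and 85.2 CPM in culture (log2 fold change −4.40 ± 0.60, adjusted p = 1.65e-06). Aldh1l2, a mitochondrial folate enzyme, was at 1.64 ± 1.49 against 70.4 ± 3.29 CPM, Slco4a1, an organic anion transporter, at 1.15 ± 0.811 against 60.6 ± 13.5 CPM, and Nup210, a nuclear pore protein, at 2.64 ± 0.698 against 60.7 ± 10.2 CPM. Rnd1, a small GTPase, was at 1.59 ± 0.262 against 31.7 ± 0.403 CPM. Reep6, Mettl7b, Siglecg, Tspan5 and Snx22 completed the list, with log2 fold changes from −4.65 ± 0.42 for Reep6 to −4.29 ± 0.76 for Snx22. Among the largest losses in CPM, Ptgs2, the prostaglandin synthase COX-2, had 91.8, 151 and 340.1 CPM in the tumour cells, against 1335 and 1506 CPM in culture (log2 fold change −3.01 ± 0.40, adjusted p = 1.23e-06), and the other members were the tRNA synthetases Nars, Gars and Aars, Asns, Ncl, Hspa9 and Top2a.

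The amino acid list had the lowest median of the lists counted. Of 26 tested genes of amino acid supply and the integrated stress response, 23 were lower and none was higher, with a median of −2.35. Asns, asparagine synthetase, had 40.0, 48.4 and 76.3 CPM in the tumour cells, against 762 and 747 CPM in culture (log2 fold change −3.85 ± 0.38, adjusted p = 9.51e-09). The serine synthesis genes fell together, with Phgdh at 37.3 ± 6.43 against 198 ± 12.8 CPM, Psat1 at 25.4 ± 3.83 against 292 ± 0.511 CPM and Psph at 11.7 ± 1.61 against 152 ± 9.60 CPM. The mitochondrial folate enzymes Shmt2 and Mthfd2 were at 109 ± 6.49 against 538 ± 35.4 CPM and 28.4 ± 4.03 against 339 ± 10.99 CPM, and the proline synthesis genes Pycr1 and Aldh18a1 at 14.3 ± 1.16 against 67.9 ± 6.89 CPM and 102 ± 11.5 against 336 ± 1.99 CPM. Slc7a11, the cystine importer, had 0, 0.369 and 1.51 CPM in the tumour cells, against 51.4 and 58.9 CPM in culture, with no overlap (log2 fold change −6.56 ± 0.95, adjusted p = 3.86e-06; the log2 fold change was −7.24 without tumour replicate 3). Cth, which makes cysteine from cystathionine, was at 0.774 ± 0.397 against 70.5 ± 1.39 CPM, and Slc7a5, the importer of leucine, at 118 ± 17.0 against 615 ± 18.9 CPM. Atf4, the transcription factor of the response, had 225, 259 and 324 CPM in the tumour cells, against 757 and 683 CPM in culture (log2 fold change −1.41 ± 0.14, adjusted p = 7.88e-09). Its partner gene Ddit3, which encodes CHOP, was at 50.6 ± 8.30 against 106 ± 14.8 CPM, and Trib3, a pseudokinase that ATF4 induces, at 69.5 ± 8.62 against 445 ± 7.56 CPM. Cebpb and Sesn2 did not pass, at 338 ± 41.1 against 265 ± 18.2 CPM and 78.4 ± 17.5 against 90.8 ± 3.87 CPM. The synthetases that charge tRNA, Nars, Gars and Aars, were at 514 ± 31.8 against 1646 ± 26.8 CPM, 251 ± 27.5 against 979.7 ± 55.1 CPM and 300.3 ± 32.2 against 927 ± 49.0 CPM.

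The letters TGATGNAA, the core of the element that ATF4 binds with C/EBP, were searched on both strands in promoter windows of 250 bases before to 50 after the start (RefSeq, build GRCm38.p6, which is not the build of the counts). They were found for 9 of the 23 members with a window, or 39.1%, and for 4.51% of all 27025 gene symbols in the table. Motif shares here and below cover tested members whatever their call. The lists hold genes already known for each response, so a high share is no result about the fold changes. Asns, Pycr1 and Slc7a11 are shown because each fell and holds a match, and Slc7a11 holds it 2 times on opposite strands. Capitals mark the match, and each window is written in the direction of the gene.
Asns, chr6:7693160-7693459, minus strand: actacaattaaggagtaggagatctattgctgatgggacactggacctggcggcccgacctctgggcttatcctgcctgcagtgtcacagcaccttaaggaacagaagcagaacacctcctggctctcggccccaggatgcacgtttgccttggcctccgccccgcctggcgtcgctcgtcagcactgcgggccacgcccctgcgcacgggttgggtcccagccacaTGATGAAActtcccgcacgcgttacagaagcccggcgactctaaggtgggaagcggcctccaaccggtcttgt
Pycr1, chr11:120643699-120643998, minus strand: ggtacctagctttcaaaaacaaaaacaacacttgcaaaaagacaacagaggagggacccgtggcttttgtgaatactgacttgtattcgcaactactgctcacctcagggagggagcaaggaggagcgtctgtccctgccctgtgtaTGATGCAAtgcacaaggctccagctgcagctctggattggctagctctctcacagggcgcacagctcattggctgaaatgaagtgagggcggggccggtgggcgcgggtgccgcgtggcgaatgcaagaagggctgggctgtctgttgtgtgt
Slc7a11, chr3:50443564-50443863, minus strand: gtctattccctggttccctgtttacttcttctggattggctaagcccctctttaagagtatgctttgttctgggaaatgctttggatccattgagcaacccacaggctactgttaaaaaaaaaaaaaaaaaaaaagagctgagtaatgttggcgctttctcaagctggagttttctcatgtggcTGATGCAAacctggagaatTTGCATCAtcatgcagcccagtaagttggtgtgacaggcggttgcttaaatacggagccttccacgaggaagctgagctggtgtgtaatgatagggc
The serine genes Phgdh, Psat1 and Psph, with log2 fold changes of −2.40 ± 0.21, −3.53 ± 0.32 and −3.69 ± 0.12, have no such letters in a window of theirs.

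Genes of the cell cycle were lower in the tumour cells. Of 30 tested genes of mitosis, 29 were lower and none was higher, with a median of −1.73; Cdc20 was the one that did not pass, at 64.5 ± 7.81 against 97.0 ± 0.153 CPM. Top2a, the topoisomerase that untangles chromosomes, had 115, 122 and 135 CPM in the tumour cells, against 783 and 851 CPM in culture (log2 fold change −2.72 ± 0.23, adjusted p = 6.8e-10). Aurkb, a mitotic kinase, had 10.1, 12.5 and 15.6 CPM in the tumour cells, against 88.5 and 99.1 CPM in culture (log2 fold change −2.87 ± 0.29, adjusted p = 1.58e-08). Mki67, the proliferation antigen, had 54.8, 65.6 and 96.3 CPM in the tumour cells, against 102 and 163 CPM in culture (log2 fold change −0.95 ± 0.32, adjusted p = 0.0194), and did not pass without culture replicate 2 (adjusted p = 0.321). Of 30 replication genes, 27 were lower and none was higher, with a median of −1.11. Rrm2, a subunit of ribonucleotide reductase, was at 95.9 ± 9.96 against 429 ± 45.1 CPM, Mcm2 of the replicative helicase at 117 ± 9.49 against 368 ± 2.27 CPM, and Cdt1, a licensing factor, at 23.1 ± 4.01 against 89.0 ± 3.56 CPM. The letters TTTCCCGC and TTTGGCGC, forms of the E2F site searched on both strands, were each found for 5 of 24 replication genes with a window, against 1.24% and 0.585% of all symbols. The inhibitors of cyclin-dependent kinases moved the other way in part: Cdkn1a, p21, was at 347 ± 40.3 against 169 ± 19.9 CPM and Cdkn1b, p27, at 21.8 ± 4.96 against 8.25 ± 1.89 CPM, while Cdkn2c and Cdkn2d were lower at 56.5 ± 4.82 against 108 ± 0.635 CPM and 13.6 ± 3.72 against 26.6 ± 1.34 CPM. Ccnd1, cyclin D1, which growth signals induce, was at 1007 ± 88.5 against 1282 ± 34.5 CPM (−0.35 ± 0.11), and did not pass without culture replicate 1 (adjusted p = 0.0555) or replicate 2 (adjusted p = 0.0704).

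Genes that build ribosomes fell with the cycle, 25 of 28 lower and none higher, with a median of −1.07. Ncl, nucleolin, had 609, 691 and 779.7 CPM in the tumour cells, against 1357 and 1482 CPM in culture (log2 fold change −1.04 ± 0.10, adjusted p = 1.26e-08). Nolc1 and Nop56 of the nucleolus were at 101 ± 4.16 against 302 ± 7.97 CPM and 81.6 ± 8.94 against 219.8 ± 6.54 CPM, and Odc1, the first enzyme of polyamine synthesis, at 54.8 ± 11.7 against 127 ± 9.44 CPM. Myc itself was at 171 ± 31.5 against 251 ± 15.4 CPM (−0.56 ± 0.18), and did not pass without culture replicate 1 (adjusted p = 0.145). The ribosomal proteins moved less, with 10 of 34 lower and none higher. That count was 18 with total counts alone and 1 without culture replicate 1, and many of these genes share reads with pseudogenes. Of 30 nuclear genes of the respiratory chain, 10 were lower, or 6 without culture replicate 1, and none was higher.

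Genes of sterol synthesis were lower as well. Of 23 tested genes of cholesterol synthesis and uptake, 22 were lower and none was higher, with a median of −1.48. Insig1, the sterol sensor that holds SREBP back, had 21.5, 29.0 and 35.6 CPM in the tumour cells, against 115 and 116 CPM in culture (log2 fold change −1.98 ± 0.20, adjusted p = 1.59e-08). Sqle and Cyp51, later steps, were at 174 ± 28.8 against 466 ± 0.214 CPM and 102 ± 18.1 against 320.0 ± 8.88 CPM. Hmgcs1, an early step, had 55.9, 79.0 and 98.4 CPM in the tumour cells, against 127 and 139.8 CPM in culture (log2 fold change −0.76 ± 0.24, adjusted p = 0.0128), and did not pass without culture replicate 1 (adjusted p = 0.0543) or replicate 2 (adjusted p = 0.0962). Srebf2, the transcription factor itself, was at 122 ± 17.5 against 222 ± 0.917 CPM, and Ebp, the isomerase, was the one that did not pass at 90.6 ± 11.02 against 84.0 ± 4.45 CPM. Hmgcs1 was the only one of 16 members with a window that held the letters TCACNCCAC of a sterol element on either strand, which 1.44% of all symbols hold. Its window is shown with the match in capitals.
Hmgcs1, chr13:119690101-119690400, plus strand: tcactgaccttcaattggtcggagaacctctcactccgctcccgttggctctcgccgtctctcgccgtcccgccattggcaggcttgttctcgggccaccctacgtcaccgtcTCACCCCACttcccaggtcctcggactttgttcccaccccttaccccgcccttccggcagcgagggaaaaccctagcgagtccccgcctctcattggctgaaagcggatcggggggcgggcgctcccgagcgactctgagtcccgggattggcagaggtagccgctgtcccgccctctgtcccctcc

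Fatty acid synthesis followed in part, with 14 of 21 genes lower and none higher. The desaturases Scd1 and Fads2 were at 102 ± 23.3 against 296 ± 27.1 CPM and 24.7 ± 8.92 against 91.5 ± 4.96 CPM, and Fasn, fatty acid synthase, at 438 ± 84.4 against 807 ± 53.2 CPM. Of 22 genes of lipid uptake and oxidation, 8 were higher and 3 lower. Cpt1a, which carries fatty acids into mitochondria, had 53.2, 80.8 and 115 CPM in the tumour cells, against 22.3 and 30.6 CPM in culture (log2 fold change 1.60 ± 0.25, adjusted p = 9.48e-06), and Acadm of beta oxidation was at 76.8 ± 6.62 against 25.7 ± 7.65 CPM. Pparg, the fat cell receptor, was at 0.320 ± 0.389 against 8.29 ± 1.48 CPM, and Fabp5, a fatty acid carrier, at 22.1 ± 2.99 against 113 ± 9.07 CPM.

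The genes of glutathione and NADPH supply that NRF2 governs fell too, with 15 of 23 lower and none higher. Gclm and Gclc, which make the first bond of glutathione, were at 53.3 ± 5.33 against 226 ± 3.11 CPM and 102 ± 4.52 against 283 ± 1.35 CPM. Txnrd1, thioredoxin reductase, was at 175 ± 20.4 against 521 ± 65.8 CPM and G6pdx of the pentose phosphate route at 133 ± 10.6 against 343 ± 20.5 CPM. Prdx1, a peroxiredoxin, did not pass at 651 ± 62.9 against 763 ± 11.8 CPM. In iron handling, Tfrc, the transferrin receptor, was lower at 118 ± 15.6 against 557 ± 71.6 CPM, whereas Cp, the ferroxidase ceruloplasmin, had 1876, 1996 and 2694 CPM in the tumour cells, against 211 and 228 CPM in culture (log2 fold change 3.28 ± 0.23, adjusted p = 2.99e-11). Lcn2, which binds iron carriers of bacteria, was at 581 ± 117 against 56.1 ± 0.573 CPM.

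Hypoxia genes were mostly higher. Of 26 tested, 17 were higher, 1 was lower and 8 did not pass, with a median of 1.13. P4ha1, a collagen prolyl hydroxylase, had 367, 394 and 436 CPM in the tumour cells, against 78.6 and 73.6 CPM in culture (log2 fold change 2.40 ± 0.14, adjusted p = 1.63e-12). Adm, the vasodilator adrenomedullin, had 45.4, 59.7 and 118 CPM in the tumour cells, against 1.54 and 2.51 CPM in culture (log2 fold change 5.03 ± 0.44, adjusted p = 1.63e-09). Car9, a carbonic anhydrase of hypoxic tumours, was at 74.3 ± 7.31 against 20.9 ± 0.832 CPM, Mxi1, an antagonist of MYC, at 137 ± 24.9 against 28.0 ± 5.47 CPM, and Kdm3a, a histone demethylase, at 175 ± 37.9 against 58.6 ± 11.6 CPM. Vegfa, the vessel growth factor, had 403, 498 and 701 CPM in the tumour cells, against 255 and 254 CPM in culture (log2 fold change 1.00 ± 0.19, adjusted p = 1.55e-04). Slc2a1, the glucose transporter, and Ero1l, an oxidase of the endoplasmic reticulum, did not pass, at 382 ± 64.9 against 316 ± 11.4 CPM and 405 ± 98.1 against 351 ± 20.9 CPM. Hilpda, a lipid droplet protein, was the lower member, with 9.13, 11.7 and 12.9 CPM in the tumour cells, against 79.5 and 76.8 CPM in culture (log2 fold change −2.76 ± 0.28, adjusted p = 1.61e-08).

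The letters ACGTG, the core that HIF binds, occurred on either strand for 15 of 19 hypoxia genes with a window, or 78.9%, against 21.8% of all symbols. P4ha1 and Hilpda are shown because both hold 1 match in capitals and moved in opposite directions.
P4ha1, chr10:59323046-59323345, plus strand: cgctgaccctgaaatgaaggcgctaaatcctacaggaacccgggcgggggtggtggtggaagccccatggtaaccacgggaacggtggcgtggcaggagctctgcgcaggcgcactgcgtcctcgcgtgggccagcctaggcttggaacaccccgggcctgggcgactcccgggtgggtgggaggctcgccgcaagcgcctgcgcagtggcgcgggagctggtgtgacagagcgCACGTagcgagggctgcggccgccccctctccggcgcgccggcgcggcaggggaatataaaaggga
Hilpda, chr6:29272376-29272675, plus strand: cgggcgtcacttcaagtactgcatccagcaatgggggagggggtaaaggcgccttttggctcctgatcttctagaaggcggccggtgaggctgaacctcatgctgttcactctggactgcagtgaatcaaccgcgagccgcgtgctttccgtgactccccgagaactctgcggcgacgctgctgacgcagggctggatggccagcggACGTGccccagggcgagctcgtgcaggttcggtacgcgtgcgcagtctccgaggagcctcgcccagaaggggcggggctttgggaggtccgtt

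Of 22 glycolysis genes, 10 were higher and 2 lower, and 6 and 5 were called higher without culture replicate 1 and without replicate 2. Pfkp, a phosphofructokinase, was at 195 ± 31.3 against 73.6 ± 2.81 CPM, while Ldha, lactate dehydrogenase, did not pass at 1423 ± 44.3 against 1224 ± 35.4 CPM. Pfkfb4, which sets the level of an activator of glycolysis, was lower, with 7.41, 8.44 and 11.6 CPM in the tumour cells, against 83.6 and 103 CPM in culture (log2 fold change −3.41 ± 0.27, adjusted p = 3.28e-10). Of 22 angiogenic factors, 12 were higher and 2 lower. Pgf, placental growth factor, had 419.8, 814 and 1061 CPM in the tumour cells, against 32.0 and 40.7 CPM in culture (log2 fold change 4.46 ± 0.41, adjusted p = 2.93e-09). Pdgfc and Fgf2 were at 114 ± 13.0 against 8.05 ± 1.04 CPM and 20.5 ± 5.02 against 0.528 ± 0.520 CPM, and Nrp1, a co-receptor of VEGF, at 153 ± 21.2 against 23.7 ± 2.83 CPM. Vegfb and Sema3a were the lower ones, at 12.3 ± 1.29 against 22.9 ± 2.18 CPM and 2.45 ± 0.890 against 8.63 ± 1.23 CPM.

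Immediate-early genes, which serum, stress and enzymatic digestion are known to switch on within minutes, were higher in the digested and sorted cells. Of 30, 21 were higher and 4 lower, with a median of 2.16, or 1.89 with the genes at 0 in culture set at their bound. Fos had 1997, 2526 and 3025 CPM in the tumour cells, against 273 and 233 CPM in culture (log2 fold change 3.29 ± 0.25, adjusted p = 1.52e-10). Jun, its partner in AP-1, had 1490.3, 1744 and 1901 CPM in the tumour cells, against 157 and 166 CPM in culture (log2 fold change 3.42 ± 0.22, adjusted p = 4.96e-12). Btg2, which slows proliferation, had 592, 699.9 and 824 CPM in the tumour cells, against 34.8 and 32.7 CPM in culture (log2 fold change 4.39 ± 0.33, adjusted p = 8.85e-11). Dusp1 and Dusp6, phosphatases of MAP kinases, were at 265 ± 58.0 against 25.5 ± 4.10 CPM and 937 ± 102 against 138 ± 6.74 CPM. Fosl1, the late member of the Fos family, was lower, with 43.7, 49.5 and 56.8 CPM in the tumour cells, against 221 and 209 CPM in culture (log2 fold change −2.11 ± 0.30, adjusted p = 3.06e-06). Hspa1b, an inducible heat shock gene, was at 307 ± 121 against 25.2 ± 2.54 CPM, a value that reads of its near copy Hspa1a may share. Of the 20 heat shock chaperones, 6 were higher and 9 lower; Dnajb1 and Hspb1 were higher at 148 ± 44.1 against 44.9 ± 0.624 CPM and 34.8 ± 10.3 against 3.36 ± 0.131 CPM, and Hsph1 and the mitochondrial Hspd1 lower at 107 ± 23.1 against 202 ± 8.51 CPM and 155 ± 12.9 against 329.6 ± 8.26 CPM. The part of digestion and sorting in these values was not tested.

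The full cyclic AMP element TGACGTCA was found for 3 of 25 immediate-early genes with a window and for 2.03% of all symbols. Btg2, one of these, is shown with the match in capitals.
Btg2, chr1:134079106-134079405, minus strand: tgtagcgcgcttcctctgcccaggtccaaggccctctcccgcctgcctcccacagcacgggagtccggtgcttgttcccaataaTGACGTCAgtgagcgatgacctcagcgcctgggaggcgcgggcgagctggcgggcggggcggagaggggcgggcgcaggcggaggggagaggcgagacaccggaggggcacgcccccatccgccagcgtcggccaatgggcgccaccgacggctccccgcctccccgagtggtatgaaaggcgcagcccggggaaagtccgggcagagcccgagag

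The machinery that loads class I molecules was higher in the tumour cells of mice treated to remove CD4 and CD8 T cells. Of 23 tested class I genes, 16 were higher and none was lower, with a median of 0.94. Tap1, the peptide transporter, had 35.8, 44.0 and 54.9 CPM in the tumour cells, against 15.5 and 13.7 CPM in culture (log2 fold change 1.60 ± 0.24, adjusted p = 5.27e-06). Tapbp, tapasin, was at 449.7 ± 14.8 against 146 ± 6.04 CPM, and Psmb8 and Psmb9, subunits of the immunoproteasome, at 12.9 ± 3.28 against 1.11 ± 0.418 CPM and 14.1 ± 3.16 against 2.27 ± 0.280 CPM. H2-D1, a class I heavy chain, was at 1227 ± 112 against 774 ± 40.8 CPM (0.66 ± 0.26), a call lost without culture replicate 1 (adjusted p = 0.152) or 2 (adjusted p = 0.252) and without tumour replicate 2 (adjusted p = 0.0602), 3 (adjusted p = 0.0765) or 5 (adjusted p = 0.0725). It was also lost with total counts alone (adjusted p = 0.0994) and with no filter on low counts (adjusted p = 0.0761). H2-K1, the other heavy chain, had 401, 448 and 490.2 CPM in the tumour cells, against 604 and 526 CPM in culture, which did not overlap, but did not pass (log2 fold change −0.35 ± 0.23, adjusted p = 0.243). B2m, the light chain, had 266, 328 and 387 CPM in the tumour cells, against 467 and 402 CPM in culture, again without overlap and without passing (log2 fold change −0.42 ± 0.25, adjusted p = 0.190).

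Type I interferon genes were called in each direction at shares near those of all tested genes. Of 34 genes known for type I interferon, 9 were higher and 8 lower, with a median of −0.16, and 5 were called higher without culture replicate 1 and 5 without replicate 2. The lower ones included Ifit1, Isg15 and Rsad2. Ifit1 had 1.28, 3.09 and 4.46 CPM in the tumour cells, against 19.01 and 15.1 CPM in culture (log2 fold change −2.58 ± 0.46, adjusted p = 6.69e-05). Isg15 was at 3.06 ± 0.921 against 15.8 ± 1.24 CPM, and Rsad2 at 0.323 ± 0.311 against 3.99 ± 1.02 CPM. The higher ones included Parp14 at 46.3 ± 6.38 against 5.80 ± 0.951 CPM and Zbp1, a sensor of Z-form nucleic acid, at 15.2 ± 2.77 against 1.11 ± 0.388 CPM. The interferon-stimulated response element, read as GAAA, any 2 bases and GAAA on either strand, was found for 13 of 24 of these genes with a window and for 3.99% of all symbols. Among 25 genes known for interferon gamma, 12 were higher and 1 was lower. Irf1 had 58.5, 67.9 and 86.8 CPM in the tumour cells, against 25.2 and 21.6 CPM in culture (log2 fold change 1.59 ± 0.25, adjusted p = 1.22e-05), and Gbp2, a guanylate-binding protein, was at 29.0 ± 7.31 against 1.53 ± 0.260 CPM. Cxcl10, a chemokine for T cells, stayed at 0.176 ± 0.282 against 0.372 ± 0.0187 CPM, and Cd274, which encodes PD-L1, at 0.532 ± 0.429 against 0.743 ± 0.400 CPM; neither passed.

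Genes of signals to immune cells were called in both directions. Chemokines and cytokines were called lower at about the share of all tested genes, 18.6%. Of 25 chemokines, 11 were higher and 5 lower, with 4 and 5 called higher without culture replicate 1 and without replicate 2. Cx3cl1, fractalkine, had 219, 247 and 319.8 CPM in the tumour cells, against 44.8 and 35.5 CPM in culture (log2 fold change 2.68 ± 0.29, adjusted p = 3.86e-08), while Cxcl5 and Cxcl16 were lower at 4.50 ± 1.95 against 27.6 ± 2.00 CPM and 92.2 ± 10.2 against 189 ± 13.3 CPM. Of 19 cytokines, 6 were higher and 4 lower. Csf3, the neutrophil growth factor G-CSF, was lower, with 7.85, 12.6 and 13.3 CPM in the tumour cells, against 97.0 and 83.4 CPM in culture (log2 fold change −2.92 ± 0.30, adjusted p = 2.24e-08), as was Il34, a ligand of Csf1r, at 13.3 ± 4.05 against 46.5 ± 0.961 CPM. Il33, an alarmin, was higher at 24.6 ± 7.49 against 3.34 ± 0.457 CPM, and Csf1, the macrophage growth factor, did not pass at 293 ± 40.1 against 257 ± 13.8 CPM. Of 17 complement genes, 11 were higher and none was lower; C3 had 912, 1006 and 1093 CPM in the tumour cells, against 164 and 206 CPM in culture (log2 fold change 2.44 ± 0.33, adjusted p = 1.49e-06), and Clu, clusterin, was at 1522 ± 88.7 against 153 ± 4.06 CPM. Among 18 ligands that restrain lymphocytes, 12 were higher and 2 lower. Vsir, which encodes VISTA, was at 202 ± 42.6 against 34.0 ± 0.286 CPM, Lgals9 at 81.9 ± 14.6 against 15.3 ± 2.00 CPM, and Nt5e, the CD73 enzyme that makes adenosine, at 1565 ± 137 against 354 ± 31.01 CPM.

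Of the growth factor pathways, TGF-beta genes counted 17 higher and 2 lower of 28. The ligand Tgfb3 had 222, 288 and 297 CPM in the tumour cells, against 39.2 and 44.5 CPM in culture (log2 fold change 2.69 ± 0.17, adjusted p = 5.17e-12), the feedback gene Smad7 was at 128 ± 13.0 against 69.6 ± 11.2 CPM, and Smad3, a signal transducer, was lower at 96.5 ± 14.6 against 140.2 ± 13.7 CPM, a call lost without culture replicate 2 (adjusted p = 0.112). In the Notch pathway 8 of 17 genes were higher and 2 lower. The receptor Notch1 was at 278 ± 39.9 against 129.5 ± 12.3 CPM and the target Hey1 at 12.4 ± 3.79 against 0.304 ± 0.0684 CPM, but the target Hes1 was lower at 122 ± 28.7 against 221 ± 9.83 CPM. Of 23 YAP targets, 7 were higher and 8 lower. Ccn2 had 139.6, 191 and 259.8 CPM in the tumour cells, against 33.5 and 34.4 CPM in culture (log2 fold change 2.55 ± 0.34, adjusted p = 1.4e-06), whereas Ankrd1, a standard readout of YAP in culture, had 15.5, 21.0 and 28.0 CPM in the tumour cells, against 186 and 197 CPM in culture (log2 fold change −3.16 ± 0.55, adjusted p = 4.63e-05). Of 21 ErbB genes, 8 were higher and 3 lower, with 5 called higher without culture replicate 1. The ligand Tgfa was at 357 ± 80.3 against 114 ± 7.07 CPM. Btc, betacellulin, was lower, with 3.02, 6.14 and 6.93 CPM in the tumour cells, against 17.95 and 19.7 CPM in culture. Etv5, a target of the MAP kinase route, was lower at 62.4 ± 13.8 against 171 ± 5.15 CPM, while the feedback gene Spry1 was higher at 141 ± 18.3 against 44.4 ± 0.0112 CPM.

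Markers of other cell types were read in the same libraries. Of 22 macrophage genes, 19 were higher in the tumour cells and 2 lower, and their summed level ran from 214 to 323 CPM in the tumour libraries and from 102 to 108 CPM in culture. Csf1r, the receptor of macrophages, had 58.7, 66.7 and 88.0 CPM in the tumour cells, against 1.83 and 1.41 CPM in culture. Csf1r averaged 70.5 CPM here, against 17.1 CPM in depleted EpCAM-negative cells and 85.4 CPM in IgG EpCAM-positive cells. C1qb averaged 10.1, 11.8 and 2.80 CPM in the same groups. In IgG EpCAM-negative cells Csf1r averaged 4.89 CPM and C1qb 0.63 CPM. Which cells carried Csf1r was not tested. Ptprc, which encodes the CD45 of the gate, was at 4.43 ± 3.06 against 0 ± 0 CPM. Lyz2, lysozyme, was at 64.7 ± 23.5 against 0.295 ± 0.0539 CPM and C1qa, a complement gene of macrophages, at 8.87 ± 2.59 against 0 ± 0 CPM. Cd68, a lysosomal protein of macrophages, was lower at 21.0 ± 1.18 against 32.6 ± 2.78 CPM, and did not pass without culture replicate 1 (adjusted p = 0.226) or 2 (adjusted p = 0.0760) or without tumour replicate 2 (adjusted p = 0.0521) or 6 (adjusted p = 0.0508). No macrophage gene was at 0 counts in all tumour libraries, and 7 were in both cultures. The class II genes, which macrophages also express, were 5 higher and 0 lower of 11, with Cd74 at 45.8 ± 12.2 against 0.586 ± 0.149 CPM and H2-Ab1 at 23.2 ± 6.32 against 0.436 ± 0.109 CPM. Endothelial genes summed to 41.0 to 75.2 CPM in the tumour libraries and 9.19 to 11.5 CPM in culture, with 2 of 17 higher. Most of that sum was Cdh5, VE-cadherin, at 38.3 ± 12.6 against 0.371 ± 0.525 CPM; Pecam1, which marks all endothelium, was at 0.339 ± 0.342 against 0.170 ± 0.168 CPM and Eng, the CD105 of the gate, at 1.27 ± 0.533 against 0.945 ± 0.251 CPM. Fibroblast genes summed to 4627 to 6135 CPM in the tumour libraries and 2146 to 2275 CPM in culture, with 7 of 16 higher. Most of it was Fbln2, a fibulin that the cultured cells express too, at 4527 ± 539 against 1685 ± 75.0 CPM. Pdgfra was at 28.9 ± 5.89 against 13.1 ± 2.27 CPM and Thy1, the CD90 of the gate, at 0.0248 ± 0.0606 against 0 ± 0 CPM. Pericyte and smooth muscle genes summed to 105 to 203 CPM in the tumour libraries and 17.2 to 23.4 CPM in culture, mostly Mcam and Notch3, with 3 of 10 higher. Of 20 T and natural killer cell genes, 9 were at 0 counts in all 6 tumour libraries and 17 in both cultures. Only 6 of these genes were tested, with 0 higher and 1 lower. The list summed to 0.857 to 2.80 CPM in the tumour libraries and 1.84 to 2.47 CPM in culture. The fibroblast collagens Col1a1 and Col3a1, C1qa, C1qb and 5 of the 11 class II genes were also higher than in culture. The part of host RNA in them was not tested.

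**Figure D4:**
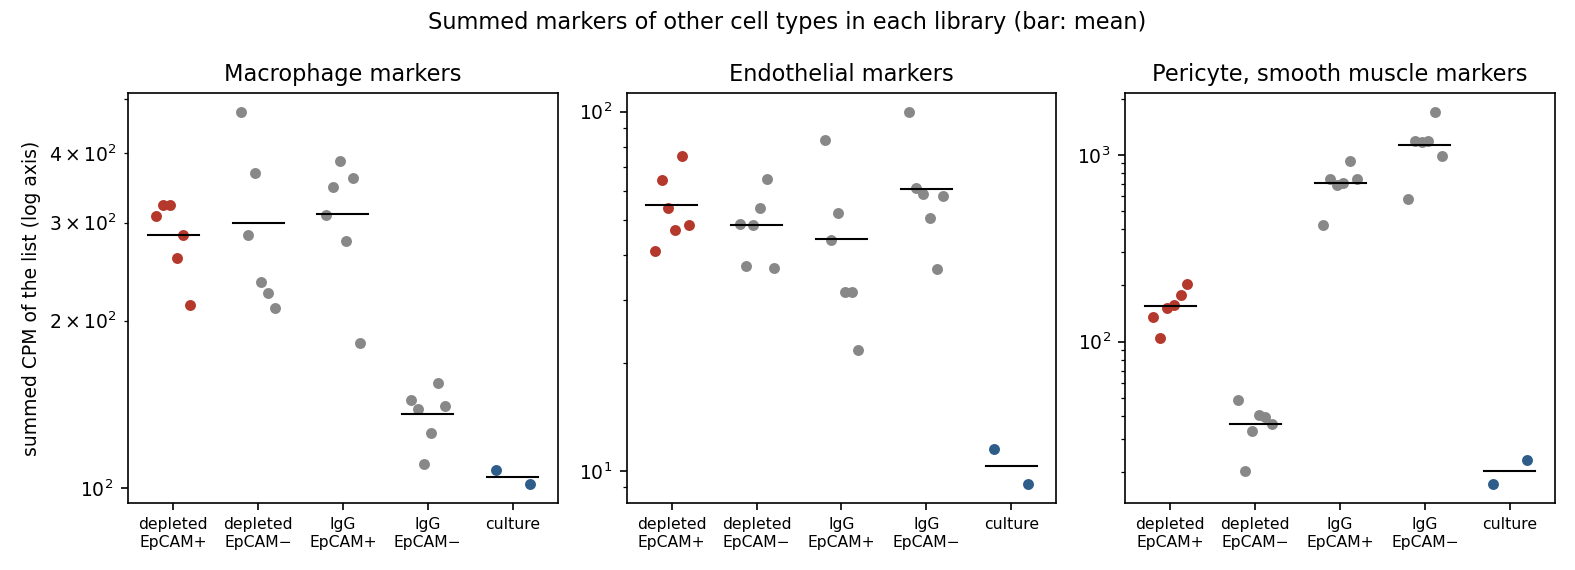
Summed CPM of 3 marker lists in each library, on a log axis, for the depleted EpCAM-positive cells (red), the other 3 tumour groups (grey) and culture (blue); bars are group means. Macrophage, endothelial, and pericyte and smooth muscle sums are above both cultures in every depleted EpCAM-positive library.

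The tumour groups most like these cells were used to ask which features were shared. Against EpCAM-negative cells of depleted mice, 2373 genes (14.3%) were higher and 2365 (14.2%) lower in the EpCAM-positive cells. Against EpCAM-positive cells of IgG-treated mice at day 47, 2928 genes (17.6%) were higher and 3730 (22.4%) lower in the depleted cells. That comparison sets day 20 against day 47 as well as depletion against control. Asns averaged 52.5 CPM in depleted EpCAM-positive cells, 115 CPM in depleted EpCAM-negative cells (−1.13 ± 0.30, adjusted p = 0.00465) and 11.4 CPM in IgG EpCAM-positive cells (2.20 ± 0.31, adjusted p = 2.8e-06). Of the amino acid genes, 1 was higher and 13 lower than in EpCAM-negative cells, and 12 higher and 7 lower than in IgG cells. Top2a averaged 124 CPM, against 123 CPM in depleted EpCAM-negative cells (0.01 ± 0.18, adjusted p = 0.982) and 87.0 CPM in IgG EpCAM-positive cells (0.51 ± 0.18, adjusted p = 0.0239). Of the mitosis genes, 10 were higher and 0 lower than in EpCAM-negative cells, and 24 higher and 0 lower than in IgG cells. Insig1 averaged 29.4 CPM, against 47.8 CPM in depleted EpCAM-negative cells (−0.70 ± 0.16, adjusted p = 0.00102) and 59.8 CPM in IgG EpCAM-positive cells (−1.03 ± 0.16, adjusted p = 7.18e-06). Tap1 averaged 44.3 CPM, against 20.1 CPM in depleted EpCAM-negative cells (1.14 ± 0.15, adjusted p = 1.97e-06) and 80.2 CPM in IgG EpCAM-positive cells (−0.86 ± 0.15, adjusted p = 5.26e-05). Of the class I genes, 9 were higher and 1 lower than in EpCAM-negative cells, and 4 were higher and 18 lower than in IgG cells. Lama3 averaged 964 CPM, against 105 CPM in depleted EpCAM-negative cells (3.20 ± 0.29, adjusted p = 5.34e-09) and 247 CPM in IgG EpCAM-positive cells (1.96 ± 0.28, adjusted p = 2.99e-06). Mmp9 ran from 137 to 322 CPM, against 12.7 to 31.2 CPM in depleted EpCAM-negative cells and 0 to 1.21 CPM in IgG EpCAM-positive cells. With 1.09 and 0.742 CPM in culture, its rise was not shared by the IgG EpCAM-positive cells.

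**Figure D5:**
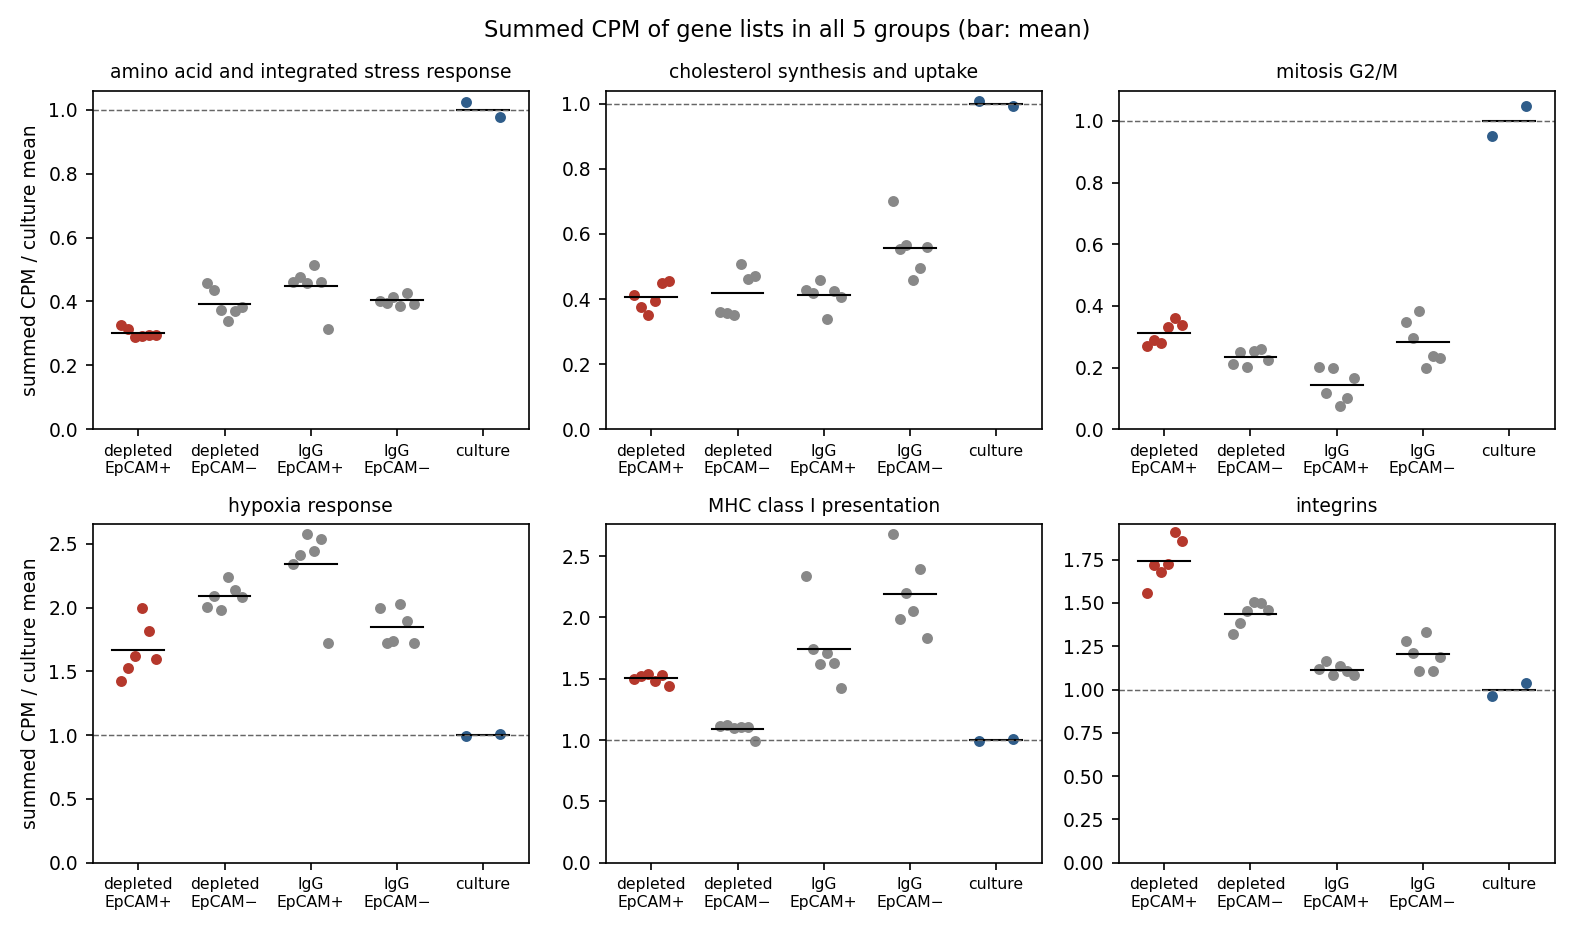
Summed CPM of 6 gene lists in each library, divided by the mean of the 2 cultures (dashed line at 1), for depleted EpCAM-positive cells (red), the other 3 tumour groups (grey) and culture (blue); bars are group means. The amino acid, cholesterol and mitosis sums are below both cultures in all 6 depleted EpCAM-positive libraries, and the hypoxia, class I and integrin sums are above both; abundant members weigh most in a sum.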

How the data were processed

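RNA was sequenced from sorted tumour cells and cultured E-A14 cells as 50-cycle single reads, after cDNA amplification from 0.1 to 1.0 ng of RNA in 10, 12 or 14 PCR cycles, per the labels' protocols. That amplification can add technical spread, and counts are of reads without molecular identifiers, so intervals cover counting error only. The deposited table holds raw counts per gene. STAR, the mm9 build and DESeq2 1.22.2 are named in the submitters' processing notes; no source here names the counter or its strand setting. Genes that share reads with near copies or overlap an antisense gene are therefore uncertain. A deposited table of normalized values was not used here.

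Counts of all 26 libraries were fitted in R 4.3.3 with edgeR 4.0.16 (filterByExpr over the 5 groups, TMM, glmQLFit and glmQLFTest, 1 coefficient per group; limma 3.58.1), leaving 16637 genes, with Benjamini-Hochberg adjustment over all of them and a threshold of 0.05. DESeq2 1.42.0, other scalings, filters, a replicate block and leaving out single libraries were alternatives. The fit was tested on simulated data, and the outcome is not reported here. An exact permutation of 6 against 2 libraries cannot go below p = 0.0714 (two-sided), so single genes rest on the fit. The 2 culture libraries differed by more than counting noise (mean chi-square per gene 19.0), so they are not 1 library deposited again, but this does not show that they are separate cultures; the labels call them replicates and both were kept. A floor of 3 counts per library stands for a group at 0; 95% counting intervals of ratios are exact.

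The comparison and the 63 gene lists were chosen with earlier results of these data known. Named were the 12 largest changes each way among called genes (at least 10 CPM in the higher and 1 CPM in the lower group, no overlap), the 8 most abundant genes of 1 group with at most 3 counts in each library of the other, the 8 largest differences in CPM each way, up to 6 members per list by p, and a set of identity and immune genes. Other genes named to account for a list, and the TGATGNAA letters, were chosen after their values were seen. Predicted genes and pseudogenes were counted but not named, and a few other genes are not reported here.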

Additional observations from a re-analysis of the deposited data

Results flagged for a closer look

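Each named gene and each summed list of markers of other cell types was checked for a library that stood apart among the 6 depleted EpCAM-positive libraries. The measure was the gap to its nearest neighbour over the whole range (above 0.625, Dixon's criterion at 95%). Sums of the other gene lists were not checked in this way. Of 242 values examined 25 were marked, where chance alone marks about 1 in 20. In 19 of them the highest library stood apart. In CPM these were Cdkn1a at 425 (next 355), Clu at 1692 (next 1520.5), Col4a2 at 70.6 (next 50.3), Cxcl10 at 0.724 (next 0.233), Fut1 at 0.156 (next 0.0536) and Hes1 at 178 (next 122); then Il34 at 20.8 (next 13.5), Lgals9 at 111 (next 80.9), Myo5c at 0.107 (next 0), Odc1 at 77.2 (next 57.1), Pecam1 at 0.986 (next 0.375) and Podxl at 233 (next 185); and Psmb9 at 20.0 (next 14.0), Sesn2 at 112 (next 79.5), Stc2 at 0.0519 (next 0), Thy1 at 0.149 (next 0), Tpm2 at 288 (next 243), Wnt7a at 2.33 (next 1.25) and dendritic cell markers at 122 (next 97.8). In the other 6 the lowest library stood apart, Btc at 3.02 (next 5.84), C1qb at 4.98 (next 9.86), Csf3 at 7.85 (next 12.1), Fn1 at 4489.6 (next 5828), Gclm at 43.1 (next 52.5) and Hey1 at 4.96 (next 12.6). Several of the highest ones (Myo5c, Stc2, Thy1, Fut1) are near 0 in every tumour library.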

How the results depend on the processing

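The counts of 3473 higher and 3097 lower genes were recomputed under each alternative. They were 3474 and 3125 with median-ratio size factors, 3804 and 3112 with DESeq2, 2919 and 3108 with no filter on low counts, 2864 and 2926 with a minimum of 5 CPM, 3427 and 3243 with the 8 libraries alone, and 3561 and 2930 with all libraries thinned to the smallest total. Total counts alone gave 2775 and 3957. Leaving out 1 library at a time gave 2164 to 3485 higher and 2247 to 3216 lower genes; the lowest of each came without culture replicate 1, when the remaining culture library is assumed to vary like the other groups, and the cause was not tested further. Against EpCAM-negative cells of depleted mice the same gave 2199 to 2324 higher and 2078 to 2277 lower, and against EpCAM-positive cells of IgG-treated mice 2691 to 2800 higher and 3491 to 3583 lower.

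With the replicate number as a block the counts against culture were 3163 and 2881, against EpCAM-negative cells 2378 and 2388, and against IgG cells 2916 and 3653. The labels do not say that a number marks a shared animal. Deviations of equally numbered EpCAM-positive and EpCAM-negative libraries of depleted mice correlated at 0.0606 to 0.195, 5 of 6 being best with their own number, and those of EpCAM-positive IgG libraries at −0.0727 to 0.0101. Because 1 or more depleted pairs were under 0.1, the block was kept as an alternative, though 5 of 6 is a hint of shared tumours.

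Of 228 named genes tested, 205 kept their call and direction in all alternatives. The sign turned for genes that did not pass: Cd274 to 0.050 with the block and to 0.20 without culture replicate 1 (−0.98 without replicate 2), Ebp to −0.045 with total counts alone, and the rat Neu transgene to 0.017 without culture replicate 2 and 0.033 without tumour replicate 2 (−0.16 without replicate 6), all log2 fold changes. DESeq2 did not call Cyb5r2, Mei4 or Psg20. The 2 culture libraries limit every comparison here, and genes near 0 rest on few counts.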

Other observations

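Genes of the lysosome and autophagy, which break down and recycle what a cell takes in, were 15 higher and 1 lower of 25 tested, with a median log2 fold change of 0.57. Ctsd, a lysosomal protease and one of the largest gains in CPM, had 4069, 4376 and 4936 CPM in the tumour cells, against 2374 and 2308 CPM in culture (log2 fold change 0.91 ± 0.10, adjusted p = 5.36e-08), and Psap, prosaposin, was at 1675 ± 146 against 639 ± 3.53 CPM. Neu1, a sialidase, was the lower one at 45.0 ± 4.13 against 88.7 ± 10.7 CPM. Of 21 p53 targets, 8 were higher and 1 was lower; Ccng1, a cyclin that p53 induces, had 1126, 1439 and 1657 CPM in the tumour cells, against 489 and 618 CPM in culture (log2 fold change 1.36 ± 0.19, adjusted p = 2.89e-06), while Mdm2, a standard target, did not pass at 438 ± 46.9 against 493 ± 47.9 CPM and Bax was the lower one at 85.8 ± 6.78 against 125 ± 9.14 CPM. Genes of the actin cytoskeleton that SRF governs were 13 higher and none lower of 24, or 8 higher without culture replicate 1. Tpm2, a tropomyosin, was at 241 ± 24.4 against 72.4 ± 4.74 CPM and Cald1, caldesmon, at 625 ± 34.6 against 263 ± 3.99 CPM.

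Milk and alveolar genes were 6 higher and 0 lower of 14 (3 higher without culture replicate 1 and 3 without replicate 2), with Elf5, the alveolar transcription factor, at 4.77 ± 0.873 against 0.724 ± 0.155 CPM and Csn1s1, Csn2 and Lalba at 0 counts in both groups. Of 18 luminal genes, 6 were higher and 1 was lower; Gata3 was at 121 ± 21.1 against 70.6 ± 4.39 CPM. Of 26 NF-kB targets, 10 were higher and 5 lower, with 6 higher without culture replicate 2 and 3 lower without replicate 1. Tnfaip2 was lower at 42.9 ± 9.36 against 129 ± 8.06 CPM and Nfkbiz higher at 145 ± 31.6 against 57.4 ± 0.639 CPM. Of 23 Wnt genes, 9 were higher and 3 lower, with 4 and 5 higher without culture replicate 1 and without replicate 2; Sfrp1, a Wnt antagonist, was lower at 15.4 ± 5.20 against 59.0 ± 2.36 CPM. Of 20 genes of the unfolded protein response, 9 were higher and 4 lower, with 5 higher under scaling by total counts and 5 without culture replicate 1. Hspa5, its main chaperone, did not pass at 2376 ± 218 against 2866 ± 157 CPM.

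Markers of other host cells were read as well. Of 11 tested neutrophil genes 3 were higher and 1 lower, of 8 dendritic cell genes 3 and 1, of 6 B and plasma cell genes 1 and 0, and of 8 erythroid and platelet genes 5 and 1. Of 9 muscle genes 3 were higher and 0 lower, of 5 adipocyte genes 0 and 1, of 7 Schwann and neuronal genes 1 and 0, and of 2 mast cell genes 0 and 0. The erythroid and platelet genes summed to 10.2 to 24.97 CPM in the tumour libraries and 11.1 to 15.7 CPM in culture, with Hbb-bs, a globin, at 5.96 ± 4.25 against 0.0160 ± 0.0227 CPM. The dendritic cell sum was 85.3 to 122 CPM in the tumour libraries and 82.4 to 88.1 CPM in culture, mostly Fscn1. The B and plasma cell sum was 2183 to 2424 CPM in the tumour libraries and 1101 to 1134 CPM in culture. Nearly all of it was Sdc1, a syndecan that epithelium also expresses, at 2322 ± 96.7 against 1117 ± 23.4 CPM. The muscle sum was 42.1 to 85.0 CPM in the tumour libraries and 24.1 CPM in each culture, mostly Acta1 at 44.0 ± 19.6 against 16.4 ± 1.40 CPM. The part of such cells in other results was not tested.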
